A study of Mus musculus with 12 samples.

Results

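The genes described here are the secreted Wnt ligands, their receptors and co-receptors, the R-spondins with their Lgr receptors, and the secreted Wnt antagonists, together with the target gene Axin2. They were chosen by gene symbol, as the rows of the deposited count table whose symbol was Wnt, Fzd, Sfrp, Dkk or Rspo followed by a number, plus the 10 genes Lgr4, Lgr5, Lgr6, Lrp5, Lrp6, Wif1, Sost, Sostdc1, Axin2 and Notum. This gave 51 of the 21965 genes in the table. Gingival tissue was sequenced in 12 libraries in 4 groups of 3, called WT naive, WT ligated, CybbKO naive and CybbKO ligated. WT mice are given as C57BL/6 in the labels and as C57BL/6J in the methods, and CybbKO mice carried Cybb-/-, a disruption of the gene for the catalytic subunit of the Nox2 NADPH oxidase. In the ligated groups a silk thread was tied round a maxillary molar, and the tissue around the second molar was taken after 8 days. Naive mice had no ligature. Each group held 3 mice matched for age and sex, given by the labels as younger than 12 weeks, and the methods give a narrower age range within that limit. The labels place the ligature on the right side and the paper on the left. The tissue was not separated into cell types, so fewer cells of a type and less RNA per cell cannot be told apart in any value below.

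Wnt proteins are lipid-modified secreted ligands that bind Frizzled receptors at the cell surface. With the co-receptors Lrp5 and Lrp6 they stabilise beta-catenin, which enters the nucleus and activates genes such as Axin2 through the TCF and LEF factors, while other ligands act on cell polarity and movement without beta-catenin. R-spondins bind Lgr4, Lgr5 and Lgr6 and keep Frizzled receptors at the surface, and most of the Sfrp, Dkk, Wif1, Sost, Sostdc1 and Notum proteins hold the signal back. In oral tissue the pathway is known for its part in the renewal of the stratified epithelium, in tooth development and in the turnover of alveolar bone.

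The libraries held between 27958819 and 42613423 counted reads. The lowest Cybb level among libraries labelled CybbKO, 41.6 CPM, was above the highest among WT libraries, 15.2 CPM. CPM is edgeR's count scaled to library size with TMM factors. This is against the direction that loss of the transcript would give, so the genotype is given below as that of the libraries labelled CybbKO. Neutrophils express Cybb, and the summed CPM of 6 neutrophil markers ran from 1314 to 3660 in WT and from 2452 to 11545 in CybbKO ligated libraries, and from 329 to 814 and 796 to 898 in the naive ones, in that order. Their part in the Cybb levels was not tested. The summed CPM of 8 oral epithelial markers, keratins Krt5 and Krt14 among them, ran from 76541 to 113141 in naive and from 58561 to 103850 in ligated libraries, and 0 of the 8 rose and 1, Krt76, fell with the ligature in edgeR's test. Over 6 fibroblast markers, 5 of them called higher, the sum ran from 1390 to 2917 in naive and from 3867 to 10396 in ligated libraries. All 4 endothelial, 6 neutrophil and 6 macrophage markers were called higher in ligated tissue, with sums of 89.1 to 120 against 173 to 270 CPM for endothelium, 329 to 898 against 1314 to 11545 for neutrophils and 36.8 to 60.1 against 68.5 to 130 for macrophages. Of 8 tested osteoblast and osteocyte markers 4 were called higher (50.2 to 89.8 CPM in naive and 63.0 to 187 in ligated libraries, summed over 9 markers), and the 4 tooth markers summed to 0.0305 to 0.255 CPM in naive and 0.0747 to 0.444 CPM in ligated libraries. Of these 4, Dspp and Amelx were at 0 in every library, Enam was counted in 1 library, and Ambn was tested and not called. CybbKO ligated replicate 2 stood apart with the lowest fibroblast sum (3867 CPM) and the highest epithelial sum (103850 CPM) of the ligated libraries. WT naive replicate 3 held 29366 CPM of salivary gland markers, where the other 11 libraries ran from 57.1 to 5084. The part of any of these in the results below was not tested.

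Of the 51 genes, 43 passed edgeR's filter on low counts and were tested among 15046 genes. The untested 8 were the ligands Wnt1, Wnt2, Wnt7a, Wnt8a and Wnt8b and the antagonists Dkk1, Dkk4 and Sost, which inhibits Wnt signalling in bone as a product of osteocytes. Dkk4 and Wnt8b had 0 counts in every library, and the highest count of the other untested genes was 21 reads, for Wnt7a. Sost was counted in 2 libraries only, WT ligated replicates 2 and 3, at 0.183 and 0.182 CPM. Wnt7a, a ligand of epithelia, ran from 0.0316 to 0.583 CPM in naive and from 0 to 0.0996 CPM in ligated libraries. With all libraries it was left out by edgeR's filter, and also where at least 10 counts were required in every library. It was called lower in ligated tissue by DESeq2 (log2 fold change -2.43, SE 0.77, adjusted p = 0.00889) and by edgeR with no low-count filter (log2 fold change -2.33, SE 0.62, adjusted p = 0.0200). It was not tested in edgeR's fits without WT naive replicate 1 or without CybbKO naive replicate 2. In the other fits with a library left out it passed the filter through naive libraries, the group in which it was high, so its calls there are a description.

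To compare genes with each other, CPM was divided by the exon length in kilobases. Wnt4 was the most abundant ligand at 51.1 CPM per kb in naive and 40.8 in ligated tissue, and it made up 48.2% of the summed CPM per kb of the ligands in naive libraries (range 45.8% to 50.1%, n = 6). Wnt7b followed with 22.3% of that sum and Wnt5a with 11.5%, and in ligated libraries the order of these 2 turned, with 15.8% for Wnt7b and 19.7% for Wnt5a. Their ranges over ligated libraries overlapped, from 12.6% to 19.7% for Wnt7b and from 11.6% to 26.5% for Wnt5a. Fzd6 led the Frizzled receptors with 30.3% of their sum in naive and 33.5% in ligated libraries, ahead of Fzd1. Lgr4 made up 78.5% of the Lgr sum in naive and 83.9% in ligated tissue, and Rspo1 65.1% and 70.4% of the R-spondin sum. Among the antagonists Sostdc1, Wif1 and Dkk3 were close to each other, with naive libraries that overlapped and means of 22.9 CPM per kb for Sostdc1 and 20.8 for Wif1.

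**Figure D1:**
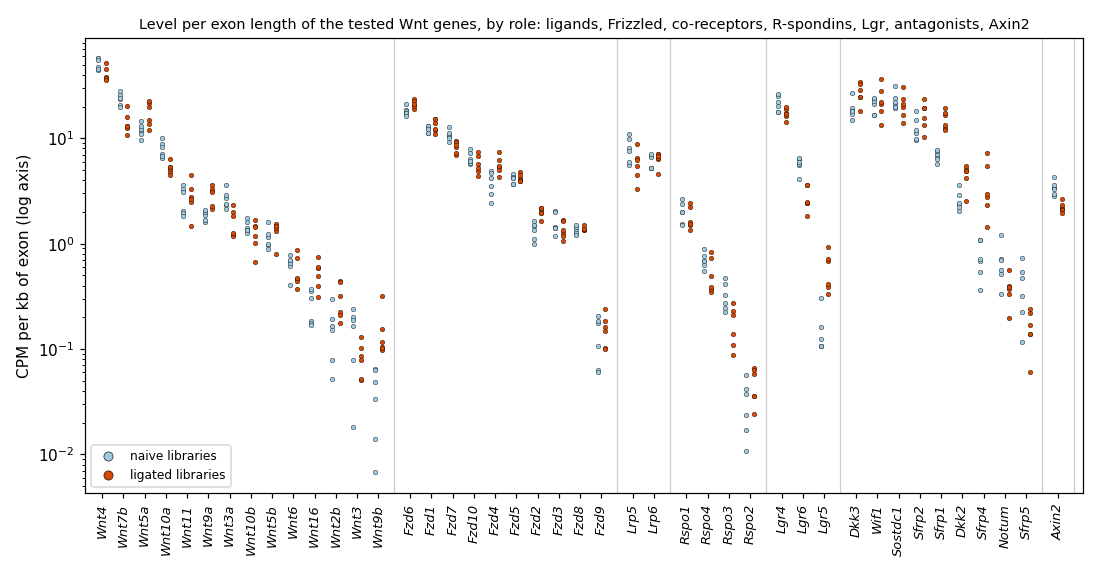
Level of each tested Wnt gene per library, in CPM per kilobase of exon on a log axis, with genes grouped by role and ordered by level. Light points are the 6 naive and dark points the 6 ligated libraries. Wnt4, Fzd6 and Lgr4 lead their classes in both conditions.

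The main comparison set the 6 ligated against the 6 naive libraries, as the mean of the ligature effect in WT and in the libraries labelled CybbKO. Of the 43 tested genes, 17 were called at an adjusted p under 0.05 in edgeR's quasi-likelihood test, where 24.4% of all tested genes were called. Higher in ligated tissue were 11 of them (14.7% of all genes were called higher) and lower 6 (9.66%). By role, 4 ligands were called higher, Wnt9b among them with the limit given below, and 3 lower of 14 tested, 2 Frizzled receptors rose and 1 fell of 10, 1 Lgr receptor rose and 1 fell of 3, and 4 antagonists rose of 9, while 0 of 4 R-spondins and 0 of 2 co-receptors were called and Axin2 fell. The median log2 fold change was 0.06 over the 43 genes and -0.03 over all tested genes. In 6 of the 43 all ligated libraries lay above all naive ones (6.73% of all genes), Wnt9b again with its limit, and in 3 all lay below (4.31%). DESeq2 called 23 of 45 genes, Wnt7a among them, where it called 28.2% of all. Without CybbKO ligated replicate 2 the edgeR count was 21 and without WT naive replicate 3 it was 17, both counting Wnt7a, with its limit given above. The share of all genes called was not taken for these 2 fits, so the change cannot be read as particular to Wnt genes.

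**Figure D2:**
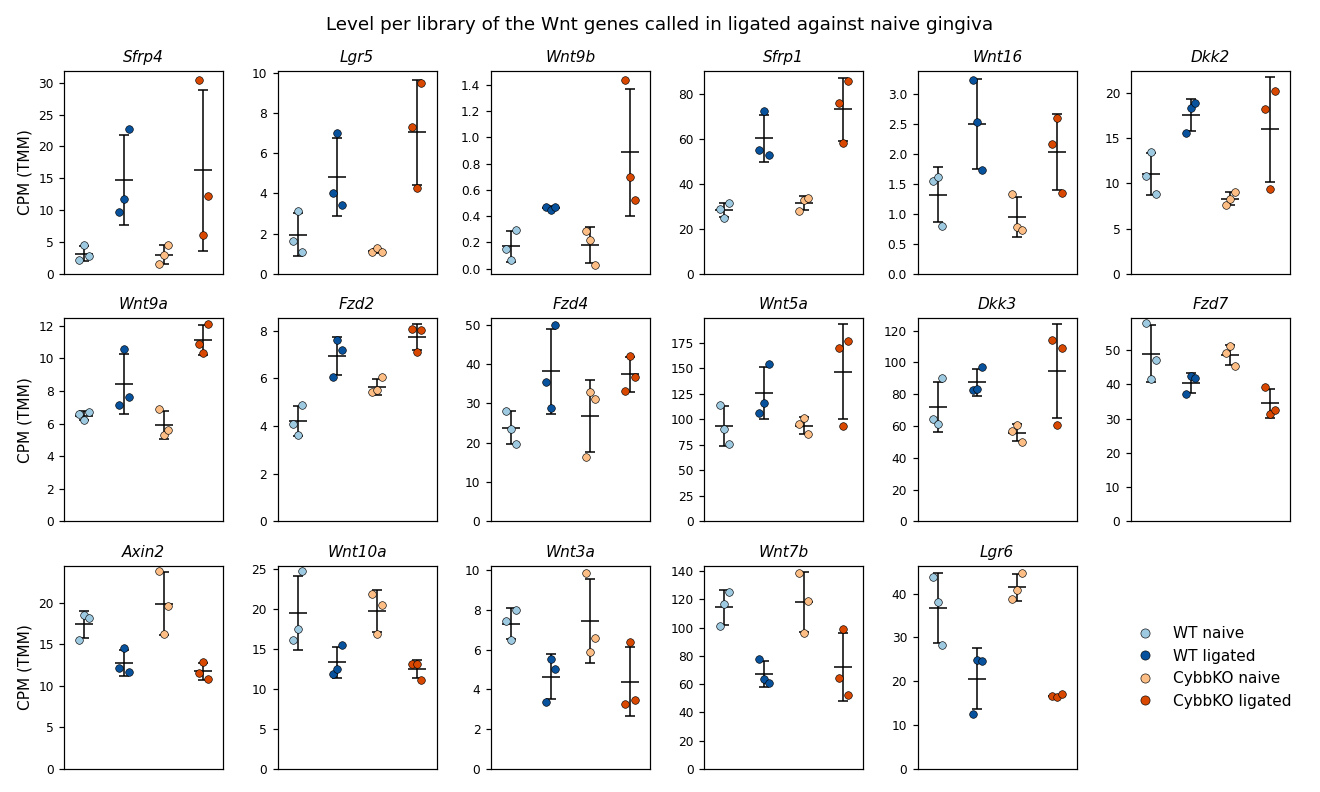
CPM per library of the 17 Wnt genes called in ligated against naive gingiva, ordered from the largest rise to the largest fall. Points are libraries, and the lines give the mean and SD of 3 libraries per group. Sfrp1, Sfrp4, Lgr5, Wnt9b, Wnt9a and Fzd2 have all ligated libraries above all naive ones, and Axin2, Wnt10a and Lgr6 all below; Wnt9b passed the low-count filter through its ligated libraries.

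Among the ligands, Wnt9a, Wnt16, Wnt5a and Wnt9b were higher in ligated tissue. Wnt9a (ENSMUSG00000000126, chromosome 11 of GRCm38, 59306928 to 59333552 on the plus strand), expressed in developing joints and skeleton, had 6.58, 6.20 and 6.71 CPM in WT naive, 7.14, 10.6 and 7.63 in WT ligated, 6.93, 5.30 and 5.58 in CybbKO naive and 10.9, 10.3 and 12.1 in CybbKO ligated libraries. Every ligated library was above every naive one, and the rise was 1.56-fold (log2 fold change 0.64, SE 0.13, adjusted p = 0.00542 from edgeR). Wnt5a, the main ligand of the beta-catenin-independent branch, had 114, 90.9 and 75.5 CPM in WT naive, 106, 116 and 154 in WT ligated, 95.1, 101 and 85.2 in CybbKO naive and 170, 93.1 and 177 in CybbKO ligated libraries. The groups overlapped in both genotypes, and the ligated library with 93.1 CPM was CybbKO ligated replicate 2. Its 1.45-fold rise (log2 fold change 0.54, SE 0.17) had an adjusted p of 0.0366 from edgeR, and was called in 3 of the 12 fits with a library left out. Without WT naive replicate 3 it was not called (log2 fold change 0.47, adjusted p = 0.0658 from edgeR). Wnt16, a ligand that acts on cortical bone, rose 2.01-fold (log2 fold change 1.01, SE 0.27, adjusted p = 0.0196 from edgeR), from 1.55, 1.61 and 0.802 CPM in WT naive and 1.33, 0.777 and 0.732 in CybbKO naive to 3.24, 2.54 and 1.74 in WT ligated and 2.17, 2.59 and 1.35 in CybbKO ligated libraries. Within each genotype its ligated libraries lay above the naive ones. Wnt9b, a ligand of the developing face and kidney, was scarce, with 0.152, 0.0633 and 0.292 CPM in WT naive, 0.473, 0.445 and 0.467 in WT ligated, 0.289, 0.222 and 0.0305 in CybbKO naive and 1.44, 0.695 and 0.525 in CybbKO ligated libraries. The filter's cutoff of 0.275 CPM applies to library size without TMM factors, and Wnt9b reached it in 6 ligated and 1 naive library. The filter thus kept it through the group in which it was high, and its call (log2 fold change 1.86, SE 0.45, adjusted p = 0.0120 from edgeR) is given as a description.

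Wnt7b, Wnt10a and Wnt3a, ligands that act through beta-catenin in epithelia, were lower in ligated tissue. Wnt7b (ENSMUSG00000022382, chromosome 15 of GRCm38, 85535437 to 85582473 on the minus strand) had 101, 117 and 126 CPM in WT naive, 77.5, 63.6 and 60.7 in WT ligated, 139, 96.2 and 119 in CybbKO naive and 64.6, 98.8 and 52.5 in CybbKO ligated libraries. The WT groups did not overlap, and in the libraries labelled CybbKO the single overlapping value, 98.8 CPM, was again replicate 2. The fall was 1.67-fold (log2 fold change -0.74, SE 0.15, adjusted p = 0.00549 from edgeR) and was called in all 12 fits with a library left out. Wnt10a, which is needed for teeth and skin appendages, had 16.1, 17.6 and 24.8 CPM in WT naive, 11.9, 12.6 and 15.6 in WT ligated, 21.9, 16.9 and 20.6 in CybbKO naive and 13.2, 13.1 and 11.2 in CybbKO ligated libraries. All of its ligated libraries lay below all naive ones, and it fell by 0.60 on the log2 scale (SE 0.13, adjusted p = 0.00747 from edgeR). Wnt3a, the classic activator of beta-catenin, had 7.46, 6.48 and 8.02 CPM in WT naive, 3.36, 5.52 and 5.03 in WT ligated, 9.87, 5.88 and 6.59 in CybbKO naive and 3.29, 6.39 and 3.49 in CybbKO ligated libraries. It fell by 0.71 on the log2 scale (SE 0.21, adjusted p = 0.0312 from edgeR), but the call held in only 6 of the 12 fits with a library left out. The highest ligated value, 6.39 CPM, belonged to CybbKO ligated replicate 2.

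Wnt4, the ligand most abundant per kilobase, had 187, 197 and 240 CPM in WT naive, 190, 161 and 154 in WT ligated, 240, 191 and 232 in CybbKO naive and 156, 215 and 151 in CybbKO ligated libraries. The groups overlapped, and its log2 fold change of -0.32 (SE 0.12) was not called by edgeR (adjusted p = 0.0609) but by DESeq2 (adjusted p = 0.0345). Without CybbKO ligated replicate 2, whose 215 CPM was the highest ligated value, it was called lower (log2 fold change -0.41, adjusted p = 0.0112 from edgeR). Wnt2b, with 0.219 to 1.25 CPM in naive and 0.749 to 1.85 in ligated libraries, was also called only without that library (log2 fold change 1.11, adjusted p = 0.0367 from edgeR; 0.96 and 0.0854 with all libraries). The other 5 tested ligands, Wnt3, Wnt5b, Wnt6, Wnt10b and Wnt11, were not called, with log2 fold changes between -0.79 for Wnt3 and 0.24 for Wnt5b. Wnt3 reached the filter's cutoff in 4 naive and 2 ligated libraries. The filter thus kept it through the group in which it was high, and its fold change is a description.

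**Figure D3:**
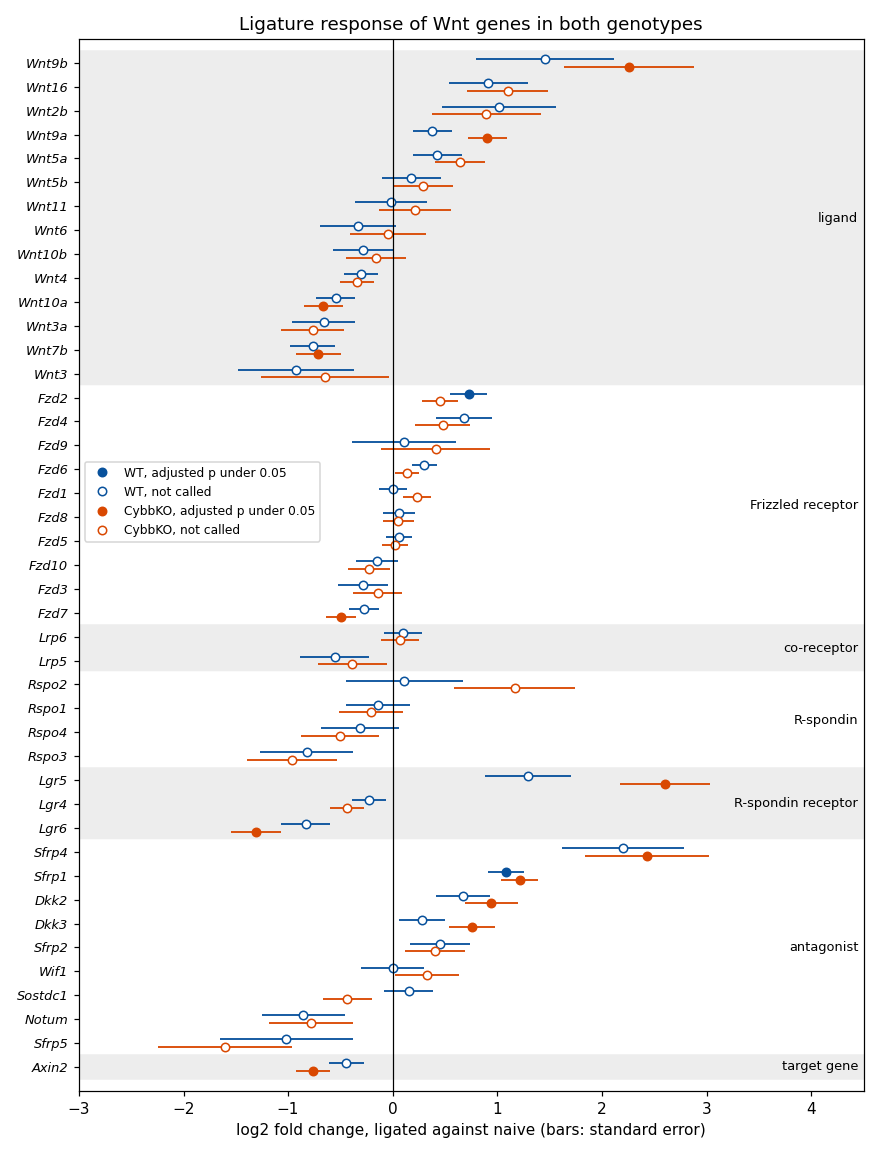
Log2 fold change of ligated against naive gingiva for the 43 tested Wnt genes, in WT and in the libraries labelled CybbKO, by role. Bars give the standard error and filled points an adjusted p under 0.05 in edgeR. Sfrp4, Lgr5 and Wnt9b lie furthest to the right, and the filled points are Sfrp1 and Fzd2 in WT and 12 genes in the libraries labelled CybbKO.

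Of the Frizzled receptors, which bind Wnt ligands at the membrane, Fzd2 and Fzd4 rose and Fzd7 fell. Fzd2 had 4.08, 3.64 and 4.88 CPM in WT naive, 6.05, 7.59 and 7.19 in WT ligated, 5.43, 5.49 and 6.04 in CybbKO naive and 8.07, 7.12 and 8.03 in CybbKO ligated libraries. The ligated libraries lay above the naive ones throughout, though 6.05 and 6.04 CPM almost met, and the rise was 1.5-fold (log2 fold change 0.59, SE 0.12, adjusted p = 0.00589 from edgeR). Fzd4, which in endothelium also serves as the receptor of norrin, had 28.1, 23.5 and 19.7 CPM in WT naive, 35.5, 28.9 and 49.9 in WT ligated, 16.4, 32.9 and 31.2 in CybbKO naive and 33.2, 42.1 and 36.7 in CybbKO ligated libraries. The 6 naive and 6 ligated libraries overlapped, and its call (log2 fold change 0.58, SE 0.19, adjusted p = 0.0422 from edgeR) held in 3 of the 12 fits with a library left out. It was lost both without CybbKO ligated replicate 2 (adjusted p = 0.0658 from edgeR) and without WT naive replicate 3 (adjusted p = 0.0751 from edgeR). Fzd7, known from intestinal stem cells, had 57.9, 41.6 and 47.2 CPM in WT naive, 37.2, 42.5 and 41.7 in WT ligated, 49.1, 51.2 and 45.4 in CybbKO naive and 39.3, 31.3 and 32.7 in CybbKO ligated libraries. The WT groups overlapped and those labelled CybbKO did not, and it fell by 0.38 on the log2 scale (SE 0.10, adjusted p = 0.0165 from edgeR).

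The 2 Frizzled receptors with the highest level per kilobase were not called. Fzd6, a receptor of planar polarity in skin, had 89.8, 87.5 and 83.2 CPM in WT naive, 113, 110 and 98.6 in WT ligated, 83.9, 102 and 78.5 in CybbKO naive and 91.3, 96.8 and 103 in CybbKO ligated libraries. Only the WT groups did not overlap, and its log2 fold change of 0.22 (SE 0.08) had an adjusted p of 0.0697 from edgeR. Fzd1 had 52.8, 46.6 and 54.4 CPM in WT naive, 45.6, 50.2 and 58.4 in WT ligated, 54.8, 51.2 and 46.7 in CybbKO naive and 63.3, 51.5 and 64.5 in CybbKO ligated libraries, and its groups overlapped in both genotypes. The other 5, Fzd3, Fzd5, Fzd8, Fzd9 and Fzd10, had log2 fold changes between -0.22 and 0.26, and 0 of them was called by edgeR or DESeq2 or had an unadjusted p under 0.05.

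Lrp5 and Lrp6, the co-receptors of the beta-catenin branch, were not called by edgeR or DESeq2, and neither had an unadjusted p under 0.05. Lrp5 had 54.7, 78.2 and 95.5 CPM in WT naive, 63.4, 60.0 and 31.9 in WT ligated, 107, 57.5 and 73.5 in CybbKO naive and 52.9, 85.4 and 43.9 in CybbKO ligated libraries. Its levels spread widely within each group, and a log2 fold change of -0.47 (SE 0.23) had an adjusted p of 0.165 from edgeR. Lrp6 had 92.7, 90.6 and 71.1 CPM in WT naive, 87.8, 96.3 and 88.1 in WT ligated, 71.4, 97.9 and 72.0 in CybbKO naive and 96.6, 63.1 and 93.2 in CybbKO ligated libraries, and its log2 fold change was 0.08 (SE 0.13).

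The R-spondins, secreted amplifiers of Wnt signalling, were scarce and none of the 4 was called by edgeR, where Rspo3 had an unadjusted p of 0.0139 and DESeq2 called it (adjusted p = 0.0344). Rspo3 ran from 0.693 to 1.47 CPM in naive and from 0.274 to 0.837 CPM in ligated libraries, a log2 fold change of -0.89 (SE 0.31, adjusted p = 0.0546 from edgeR). Rspo1, the most abundant, had 2.95, 3.89 and 4.63 CPM in WT naive, 2.94, 3.14 and 4.31 in WT ligated, 5.17, 2.94 and 3.84 in CybbKO naive and 4.75, 2.59 and 2.99 in CybbKO ligated libraries. Rspo4, which is needed for nails, had 1.49, 1.80 and 1.64 CPM in WT naive, 1.17, 1.96 and 0.830 in WT ligated, 2.11, 1.30 and 1.62 in CybbKO naive and 1.75, 0.883 and 0.913 in CybbKO ligated libraries. The naive and ligated libraries of both overlapped. Rspo2 stayed between 0.0555 and 0.337 CPM, and it reached the filter's cutoff in 1 naive and 3 ligated libraries.

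Of the 3 Lgr receptors, which bind R-spondins, Lgr5 rose and Lgr6 fell. Lgr5 (ENSMUSG00000020140, chromosome 10 of GRCm38, 115450311 to 115587780 on the minus strand), a marker of stem cells in several epithelia, had 1.64, 3.13 and 1.09 CPM in WT naive, 4.01, 7.01 and 3.43 in WT ligated, 1.10, 1.28 and 1.10 in CybbKO naive and 7.31, 4.28 and 9.52 in CybbKO ligated libraries. Every ligated library was above every naive one, and the rise was 3.86-fold (log2 fold change 1.95, SE 0.30, adjusted p = 0.00113 from edgeR). Lgr6 (ENSMUSG00000042793, chromosome 1 of GRCm38, 134983301 to 135105276 on the minus strand), a marker of progenitors in skin, went the other way, with 43.8, 38.0 and 28.2 CPM in WT naive, 12.5, 24.8 and 24.5 in WT ligated, 38.7, 40.8 and 44.7 in CybbKO naive and 16.7, 16.5 and 17 in CybbKO ligated libraries. It was 2.10-fold lower in ligated tissue (log2 fold change -1.07, SE 0.17, adjusted p = 0.00120 from edgeR), and again no ligated library reached a naive one. Lgr5 and Lgr6 were called in all 12 fits with a library left out and under all 20 settings of the averaged comparison. Lgr4, the broadly expressed member, had 150, 130 and 104 CPM in WT naive, 111, 115 and 101 in WT ligated, 120, 155 and 104 in CybbKO naive and 83.5, 95.9 and 99.3 in CybbKO ligated libraries. Its log2 fold change of -0.33 (SE 0.12) was not called by edgeR (adjusted p = 0.0545) but by DESeq2 (adjusted p = 0.0289), and without WT naive replicate 3 it was called lower (log2 fold change -0.40, adjusted p = 0.0194 from edgeR). Per kilobase of exon Lgr5 remained the lowest of the 3 in ligated tissue, at 0.577 CPM against 2.72 for Lgr6 and 17.2 for Lgr4.

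Among the secreted antagonists, a class set by gene name, the called genes all rose, namely Sfrp4, Sfrp1, Dkk2 and Dkk3. Sfrp4 (ENSMUSG00000021319, chromosome 13 of GRCm38, 19623104 to 19632994 on the plus strand), a decoy receptor that binds Wnt ligands, had the largest rise of the 43 genes, 4.98-fold (log2 fold change 2.32, SE 0.41, adjusted p = 0.00254 from edgeR). It had 2.25, 4.49 and 2.84 CPM in WT naive, 9.71, 11.7 and 22.7 in WT ligated, 1.53, 2.97 and 4.55 in CybbKO naive and 30.4, 6.05 and 12.3 in CybbKO ligated libraries. The ligated libraries did not overlap the naive ones but spread widely among themselves, from 6.05 CPM in CybbKO ligated replicate 2 to 30.4 CPM in CybbKO ligated replicate 1. Sfrp1 (ENSMUSG00000031548, chromosome 8 of GRCm38, 23411502 to 23449632 on the plus strand), of the same family, had 28.8, 24.8 and 31.3 CPM in WT naive, 55.0, 72.3 and 52.9 in WT ligated, 28, 32.8 and 33.7 in CybbKO naive and 75.7, 57.9 and 85.4 in CybbKO ligated libraries. Its 2.22-fold rise (log2 fold change 1.15, SE 0.12) had the smallest p of the 43 genes (adjusted p = 0.000239 from edgeR) and was called in all 12 fits with a library left out. Dkk2, which binds Lrp5 and Lrp6, had 10.8, 13.5 and 8.82 CPM in WT naive, 15.6, 18.3 and 18.9 in WT ligated, 7.56, 8.27 and 9.03 in CybbKO naive and 18.2, 9.39 and 20.2 in CybbKO ligated libraries. It rose 1.75-fold (log2 fold change 0.81, SE 0.18, adjusted p = 0.00816 from edgeR), and its lowest ligated value, 9.39 CPM, was that of CybbKO ligated replicate 2. Dkk3, a divergent member of the Dkk family, had 64.5, 61.3 and 90.0 CPM in WT naive, 82.3, 83.0 and 97.1 in WT ligated, 56.6, 60.8 and 50.2 in CybbKO naive and 114, 60.8 and 109 in CybbKO ligated libraries. The groups overlapped, and its call (log2 fold change 0.52, SE 0.16, adjusted p = 0.0306 from edgeR) held in 4 of the 12 fits with a library left out.

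The other 5 tested antagonists were not called. Wif1, which binds Wnt ligands directly, had 51.1, 57.3 and 54.9 CPM in WT naive, 43.6, 51.5 and 68.1 in WT ligated, 58.6, 40.2 and 40.2 in CybbKO naive and 89.2, 32.4 and 53.1 in CybbKO ligated libraries, and its groups overlapped throughout. Sostdc1, known for limiting the number of teeth, and Sfrp2 had log2 fold changes of -0.14 (SE 0.17) and 0.43 (SE 0.20). Notum, an enzyme that removes the lipid from Wnt ligands and is itself a target of the pathway, had a log2 fold change of -0.82 (SE 0.28), and Sfrp5 one of -1.31 (SE 0.45). Both were just outside the threshold (adjusted p = 0.0546 and 0.0540 from edgeR), and DESeq2 called both lower. Without CybbKO ligated replicate 2 both were called by edgeR too, with log2 fold changes of -0.92 for Notum and -1.59 for Sfrp5.

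Axin2 (ENSMUSG00000000142, chromosome 11 of GRCm38, 108920349 to 108950783 on the plus strand), a feedback inhibitor that is transcribed in response to beta-catenin in many cell types, fell 1.52-fold in ligated tissue (log2 fold change -0.60, SE 0.12, adjusted p = 0.00417 from edgeR). It had 15.5, 18.6 and 18.2 CPM in WT naive, 12.1, 14.6 and 11.7 in WT ligated, 23.8, 16.3 and 19.7 in CybbKO naive and 11.6, 12.9 and 10.8 in CybbKO ligated libraries. No ligated library reached a naive one, and the call held in all 12 fits with a library left out.

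The genes that moved were set beside the sequence at their start sites. RefSeq windows on GRCm38.p6 of the 250 bases before the start were at hand for 32 of the 51 genes, 35 windows in all, and for 9 of the 17 called ones. Shown are those of 2 genes that fell, Axin2 and Lgr6, and of 2 that rose, Dkk2 and Wnt9a, each 5′ to 3′ on the gene's strand with motif matches on either strand in capitals. They lie at chr11:108920099-108920348 on the plus strand, chr1:135105277-135105526 on the minus strand, chr3:132085042-132085291 on the plus strand and chr11:59306680-59306929 on the plus strand.
Axin2: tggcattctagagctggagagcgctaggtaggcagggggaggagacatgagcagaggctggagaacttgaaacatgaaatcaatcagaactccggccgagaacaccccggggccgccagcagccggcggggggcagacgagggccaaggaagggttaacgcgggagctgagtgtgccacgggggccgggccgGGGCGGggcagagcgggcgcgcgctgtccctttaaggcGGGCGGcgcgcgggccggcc
Lgr6: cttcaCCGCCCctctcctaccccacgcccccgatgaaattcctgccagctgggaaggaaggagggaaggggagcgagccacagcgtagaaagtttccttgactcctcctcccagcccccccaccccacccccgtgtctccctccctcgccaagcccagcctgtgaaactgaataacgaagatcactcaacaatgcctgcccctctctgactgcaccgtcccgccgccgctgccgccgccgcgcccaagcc
Dkk2: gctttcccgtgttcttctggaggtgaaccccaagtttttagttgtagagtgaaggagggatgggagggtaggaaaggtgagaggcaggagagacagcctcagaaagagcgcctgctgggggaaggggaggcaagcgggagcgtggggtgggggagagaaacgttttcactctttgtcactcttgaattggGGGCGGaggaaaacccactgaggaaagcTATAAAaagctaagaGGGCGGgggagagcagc
Wnt9a: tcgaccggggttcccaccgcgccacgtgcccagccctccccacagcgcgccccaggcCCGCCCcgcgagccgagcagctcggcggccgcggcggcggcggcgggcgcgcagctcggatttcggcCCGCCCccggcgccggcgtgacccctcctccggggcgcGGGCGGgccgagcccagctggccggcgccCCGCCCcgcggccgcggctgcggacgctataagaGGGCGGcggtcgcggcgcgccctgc

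Short motifs were searched on both strands, namely the TCF and LEF core in the forms ATCAAAG and TTCAAAG, the TATA box TATAAA and the GC box GGGCGG, which reads CCGCCC on the other strand. ATCAAAG was found in 2 of the 35 windows, of Wnt11 and Wnt5b, and in 3.21% of all 32851 windows of the same length, and TTCAAAG in 1, of Dkk1, against 4.46% of all. None of the 4 printed windows held either form. TATAAA stood in the Dkk2 window and in 5 of the 35 windows (12.4% of all), and GGGCGG in 24 of the 35 (32.7% of all), with 2 matches each for Axin2 and Dkk2, 1 for Lgr6 and 5 for Wnt9a. CG dinucleotides numbered 24 in the Axin2, 16 in the Lgr6, 7 in the Dkk2 and 48 in the Wnt9a window, against a median of 6 over all windows.

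Within each genotype, on libraries that the averaged comparison also uses, fewer Wnt genes passed the threshold. In WT, edgeR called 2 of the 43, Sfrp1 and Fzd2, both higher in ligated tissue, where 3.20% of all genes were called and 2.31% called higher. In the libraries labelled CybbKO it called 12 (13.0% of all genes), 7 higher (9.95%) and 5 lower (3.04%): Sfrp1, Sfrp4, Dkk2, Dkk3, Lgr5 and Wnt9a rose, and Lgr6, Axin2, Wnt7b, Wnt10a and Fzd7 fell. The remaining gene, Wnt9b, was called higher, but the filter kept it through the ligated libraries and its call is again a description. DESeq2 called 6 of 44 in WT (8.93% of all) and 14 of 44, with Wnt7a, in the libraries labelled CybbKO (17.8%). In WT the ligated libraries did not overlap the naive ones for 18 of the 43 genes (24.9% of all genes), and in those labelled CybbKO for 15 (31.4%). Sfrp1 rose by a log2 fold change of 1.09 (SE 0.17, adjusted p = 0.0125 from edgeR) in WT and 1.21 (SE 0.17, adjusted p = 0.00234 from edgeR) in the libraries labelled CybbKO. Lgr5 had log2 fold changes of 1.29 (SE 0.41, adjusted p = 0.109 from edgeR) in WT and 2.6 (SE 0.43, adjusted p = 0.00382 from edgeR) in those labelled CybbKO. Lgr6 had -0.83 (SE 0.24) and -1.31 (SE 0.24), and Axin2 -0.44 (SE 0.17) and -0.76 (SE 0.17), in that order. Leaving out a single library moved these counts. The share of all genes called was not taken for these fits, so the moves cannot be read as particular to Wnt genes. In WT the count was 0 without WT naive replicate 2, 3 without WT naive replicate 3 and 5 without CybbKO ligated replicate 2, a library of neither group compared. Dkk2 (adjusted p = 0.0431), Sfrp4 (0.0284) and Wnt7b (0.0209) were the genes called in addition in edgeR without CybbKO ligated replicate 2, and Lgr6 (adjusted p = 0.0401 from edgeR) without WT naive replicate 3. The WT count was also 2 without CybbKO ligated replicate 1 and was 1 without any of the other 8 libraries. Over the 12 fits, calls in WT among the 17 genes were gained 5 times and lost 11 times, so equal counts need not mean the same genes. In those labelled CybbKO it was 4 without CybbKO ligated replicate 1 and 14 without CybbKO ligated replicate 2, and it was 6 without CybbKO ligated replicate 3. Without CybbKO ligated replicate 2 the calls of Wnt3a (adjusted p = 0.0188), Wnt4 (0.0354) and Wnt5a (0.00830) were gained in edgeR and that of Fzd7 (0.0757) was lost. Leaving out CybbKO naive replicate 1, 2 or 3 gave 5, 7 and 6 in that order, and the 5 count Wnt7a, with its limit given above.

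Whether the response differed between genotypes was asked directly. The interaction of genotype and ligature was called for 0 of the 43 genes by edgeR, with 1 at an unadjusted p under 0.05 (2.27% of all genes), and for 0 of 49 by DESeq2, with 1 at an unadjusted p under 0.05 (2.46%). Over all genes both tools called 0.00%. The 1 gene, Lgr5 in both tools, named after its values were seen, had a difference of 1.31 between its log2 fold changes (SE 0.58), with an unadjusted p of 0.0456 and an adjusted p of 1 from edgeR. Over the 43 genes these differences ran from -0.59, for Sostdc1, to 1.31. The standard errors of these differences ran from 0.16 for Fzd6 to 0.93 for Wnt9b, so that in scarce genes only large differences between the genotypes could have been seen.

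The libraries labelled CybbKO and WT were then compared within each condition. In ligated tissue edgeR called 0 of the 43 genes (0.00665% of all), with 0 at an unadjusted p under 0.05 (3.34% of all), and DESeq2 called 0 of 45 (0.112%), with 1 of 49, Wnt9a, at an unadjusted p under 0.05 (3.19%). The log2 fold changes ran from -0.80 for Wnt3 to 0.93 for Wnt9b, and for 3 genes the groups did not overlap (7.84% of all), Lgr4 and Wnt3 lower and Wnt9b higher in the libraries labelled CybbKO. Wnt3 was scarce, at 0.157 to 0.398 CPM in ligated libraries. It and Wnt9b passed the filter with the limits given above. In naive tissue edgeR also called 0 (0.00665% of all), with 1 at an unadjusted p under 0.05 (2.03% of all), and DESeq2 called 0 of 49 (0.0110%), with 1 at an unadjusted p under 0.05 (2.36%). The gene was Fzd2 in both tools, named after its values were seen, with means of 4.20 CPM for WT (SD 0.632, n = 3) against 5.65 CPM for the naive CybbKO libraries (SD 0.336, n = 3), a log2 fold change of 0.43 (SE 0.18, unadjusted p = 0.0316 and adjusted p = 1 from edgeR). Fzd2, Dkk3 and Wnt10b were the 3 genes whose naive groups did not overlap (5.11% of all), Fzd2 higher and the other two lower in the libraries labelled CybbKO.

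A wider list of 51 genes of the pathway, none of them a ligand, Frizzled or antagonist counted above, was read in the same fit. In the averaged ligature comparison 15 of the 51 were called, 9 higher and 6 lower, against the 24.4% of all genes given above, and the median log2 fold change was -0.03 on the list and over all genes alike. Draxin and Ndp, among the 9 called higher, passed the low-count filter through ligated libraries alone, with 5 of 6 ligated and 0 of 6 naive libraries at the cutoff of 0.275 CPM, so they had to differ and their values are a description. Of the 10 genes of the destruction complex and beta-catenin group, Axin1, Gsk3a and Dvl2 fell, and beta-catenin itself, Ctnnb1, was not called. Of the 8 nuclear factors Lef1 and Tcf7, which bind DNA with beta-catenin, fell. Of the 7 ubiquitin ligases and feedback genes Nkd2 and Apcdd1 rose and Rnf43, which removes Frizzled from the surface, fell. Among co-receptors and modulators Cthrc1, Adgra2, Gpc3 and Gpc4 rose, Draxin and Ndp were called higher with the limit just given, and of the planar polarity genes Prickle1 rose.

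The 6 called genes of that list with the largest change were Draxin, Cthrc1, Ndp, Lef1, Adgra2 and Prickle1. Draxin, an axon guidance protein that also antagonises Wnt signalling, had 0.176 ± 0.0661 CPM (SD, n = 6) in naive and 1.47 ± 1.15 CPM (SD, n = 6) in ligated libraries, with a log2 fold change of 2.89 (SE 0.50) given as a description. Cthrc1, a secreted collagen triple helix protein of activated fibroblasts, had 2.67 ± 2.05 CPM (SD, n = 6) against 13.9 ± 5.25 CPM (SD, n = 6), a log2 fold change of 2.46 (SE 0.41, adjusted p = 0.00176 from edgeR). It overlapped between conditions through the 6.85 CPM of WT naive replicate 3 and the 4.17 CPM of CybbKO ligated replicate 2. Ndp, which encodes norrin, a ligand of Fzd4, had a log2 fold change of 1.24 (SE 0.29), likewise a description, with 0.0729 to 0.194 CPM in naive and 0.235 to 0.548 CPM in ligated libraries. Adgra2, a co-receptor for Wnt7 ligands in vessels, went from 8.54 ± 2.33 CPM (SD, n = 6) to 16 ± 2.82 CPM (SD, n = 6), and all ligated libraries lay above all naive ones. Prickle1 had a log2 fold change of 0.72 (SE 0.15). Lef1 was the one that fell, from 3.23 ± 0.732 to 1.61 ± 0.465 CPM (SD, n = 6 each; log2 fold change -1.0, SE 0.23, adjusted p = 0.00945 from edgeR), without overlap between conditions. In WT 2 of the 51 were called (3.20% of all genes) and in the libraries labelled CybbKO 8 (13.0% of all genes). In the genotype and interaction comparisons 0 were called by edgeR and 0 by DESeq2. At an unadjusted p under 0.05 from edgeR there were 3 in ligated tissue (3.34% of all genes), 0 in naive tissue (2.03%) and 0 for the interaction (2.27%).

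**Figure D4:**
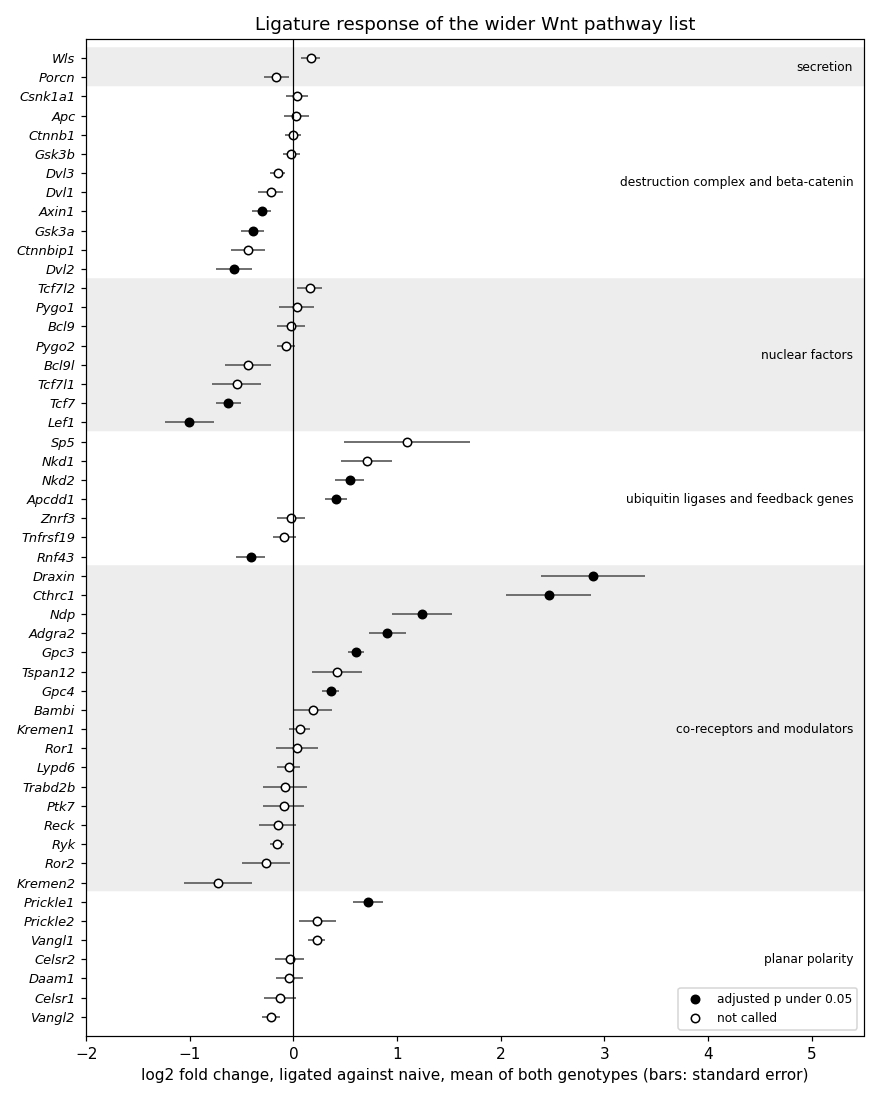
Log2 fold change of ligated against naive gingiva, as the mean of both genotypes, for the 51 genes of the wider Wnt pathway list, grouped by function. Bars give the standard error and filled points an adjusted p under 0.05 in edgeR. Draxin and Cthrc1 lie furthest to the right and Lef1 furthest to the left.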

How the data were processed

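Gingival RNA was measured in 12 libraries of 4 groups of 3, grouped by the sample titles. According to the methods and labels, TruSeq Stranded mRNA libraries were sequenced, and the authors aligned reads with STAR to GRCm38. The methods name featureCounts with a reverse strand setting, while the processing notes name HTSeq 0.10.0 and FastQC 0.10.1, so the counting tool is not settled. The authors deposited raw counts per Ensembl gene, without normalization. Genes were matched to GENCODE mouse release M21 (21939 of 21965), and exon lengths came from it. Exons of 9 members overlap a gene on the opposite strand, none of which is in the count table.

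Counts were tested with edgeR 4.0.16 in R 4.3.3, in a joint quasi-likelihood fit of all 12 libraries with TMM factors (0.918 to 1.08), filterByExpr and Benjamini-Hochberg adjustment over 15046 genes, called at an adjusted p under 0.05. The standard errors given for edgeR are the absolute log2 fold change divided by the square root of the test's F statistic. The 6 comparisons were ligated against naive within WT, within CybbKO and averaged, the genotypes within each condition, and the interaction. The spread between libraries, given as edgeR's common biological coefficient of variation, was 0.240. The labels name separate mice, and every pair of replicates differed beyond sampling noise. Alternatives were DESeq2 1.42.0, its size factors, library size only, no filter, a minimum of 10 counts per library, each library left out, the compared libraries fitted alone, replicate number as a block, and robust fitting. The procedure was tested on simulated data. Values in every library are given for called members and the 2 most abundant per kilobase of each role. Members and lists were chosen with earlier results of these data known, so no p-value over the list is given. Promoter windows are from RefSeq. Python 3.11.15 made the tables and plots.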

Additional observations from a re-analysis of the deposited data

How the results depend on the processing

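In the averaged comparison the 17 called Wnt genes kept their direction in each alternative that tested them (Wnt9b had no value with at least 10 counts required in every library), whereas Wnt11 and Wif1, which were not called, turned sign with some libraries left out (lowest log2 fold changes -0.04 and -0.06). With all libraries the count of called Wnt genes stayed between 14 (replicate block) and 23 (DESeq2), against 17. With each library left out in turn it ran from 14 to 21, Wnt7a counted where it passed the filter and was called. The share of all genes called was taken only for the main edgeR fit and for DESeq2. Of the 17 called genes, Wnt5a, Fzd4, Dkk3 and Wnt3a lost the call most often. Fzd7 lost it under scaling by library size only (adjusted p = 0.0940 from edgeR) and Wnt16 without CybbKO naive replicate 3 (adjusted p = 0.0512 from edgeR). Scaling by library size only moved the median of all genes from -0.03 to 0.07 in that comparison.

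Within a genotype the counts moved more. In WT, 2 Wnt genes became 6 with DESeq2, 1 with DESeq2's size factors in edgeR and 1 with no low-count filter, and 0 to 5 with a library left out. In the libraries labelled CybbKO, 12 became 7 in a fit of only the libraries compared, and 4 to 14 with a library left out. Of the wider list, 2 called in WT became 4 with DESeq2, 0 with no low-count filter and 0 in a fit of only the libraries compared, with 0 to 4 when a library was left out. Without 1 library the wider list ran from 4 to 11 in the libraries labelled CybbKO, against 8, and from 11 to 21 in the averaged comparison, against 15. Genotype and interaction counts were 0 in every fit with a library left out, for both lists. The causes were not tested.

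No pairing by replicate number was seen: of 18 same-numbered pairs, 2 had a correlation of deviations over 0.1 (range -0.23 to 0.28), and 2 of 12 libraries correlated best with their own number. The deviations are from means of only 3 libraries, so this check cannot exclude pairing. With the replicate block, the Wnt genes called were 1 in WT and 7 in the libraries labelled CybbKO, and those of the wider list 0 and 5.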
